A study of Mus musculus with 884 samples.

Results

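The cells described here are the day 2 (d2) S-phase cells of a single-cell replication timing series: 119 of its 884 single mouse cells, chosen by their titles, which name day 2 of differentiation and a gate of S phase. They came from CBMS1, a female embryonic stem cell line of mixed CBA and MsM strain, and had been cultured for 2 days towards epiblast-like cells (EpiLCs). For comparison, 50 S-phase cells of d3 had spent a further day in floating aggregates in plain GK15 medium with no added factor, and 165 S-phase cells of d0 were the same line in 2i/LIF medium before differentiation. The d2 cells were sorted in 6 gates labelled 25perS, 35perS, 45perS, 55perS, 65perS and 75perS, and 10 further d2 cells were sorted from G1. No separate culture was named on any day, so each day counts as 1 sample. Most d0 cells, 126 of the 157 used in the fits below, had been deposited in an earlier series of the submitters, and some had further reads added, while all d2 cells are of the present series, so day and series are largely confounded in that comparison. Differences between days therefore have no replicate check, no p-value is given, and the intervals below cover counting error over cells only. The label of the cells could be checked only against titles, source names and replication scores, because the files hold no expression values.

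In every S phase a mammalian cell copies its genome in a characteristic order. Neighbouring sequence replicates together in domains. Gene-rich, open chromatin is generally copied early, and gene-poor chromatin at the nuclear lamina late. Many domains are known to change their place in this order when pluripotent cells leave the naive state, which 2i/LIF medium maintains, and pass through a state like that of the epiblast after implantation, of which EpiLCs are a culture model. In single-cell Repli-seq, a cell is sorted by DNA content, its DNA is amplified and sequenced, and copy number along the genome tells copied from uncopied DNA.

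The authors' calls covered chromosomes 1 to 19 in 30890 bins of 80 kb (mm9). A d2 cell had a median of 29657 called bins and at most 29826. The lowest cell had 16184 and the next 25028. The replication score, the share of the called autosomal bins that a cell had copied, places it in S phase. It ran from 1.89% to 99.9% in the 119 d2 S-phase cells, with a median of 45.6%, against 0.0638% to 10.6% with a median of 1.56% in the 10 d2 G1 cells. Of the S-phase cells, 18 scored no higher than the highest G1 cell. The order of replication was described in the 105 cells with scores of 5 to 95%, which left out 10 cells below 5% and 4 above 95%.

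Before the calls were made, the authors corrected every cell for mappability with a merged G1 control. At d2 there were 2 such controls, named control B and control A here: control B served 50 of the S-phase cells, 48 of them with scores of 5 to 95%, and control A served 69 and 57. The labels do not say whether the controls also mark separate cultures or sorts. The scores differed between them at the same gate. In the 45perS gate the 10 cells with control B scored 44.4% to 62.7%, with a median of 52.3%, and the 11 cells with control A scored 2.42% to 59.8%, with a median of 14.7%. In the 25perS gate the medians were 27.3% with control B and 9.99% with control A, and in the 75perS gate 93.2% and 86.5%. The median of the control B cells was the higher at all 6 gates, and with control A cells below 5% were found in 4 gates, up to 65perS. The highest G1 cell scored 10.6% with control A and 3.86% with control B. The lowest S-phase cell with control B scored 11.3%, so every S-phase cell at or below the highest G1 cell had control A. Those of them with scores above 5% stayed in the fits, among the cells with scores of 5 to 20%. The share of each control also differed across S phase: of the 18 cells with scores of 5 to 20%, 3 had control B and 15 control A, and of the 29 cells with scores of 40 to 60%, 20 and 9. Main results are therefore given for both controls. A few cells stand apart: 5 of the 105 ranked bins poorly against the others and 10 had a whole chromosome out of place, as described further on, and leaving out either set moved neither the median span nor the counts of bins shifted from d0 by over 1.5 times.

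**Figure D1:**
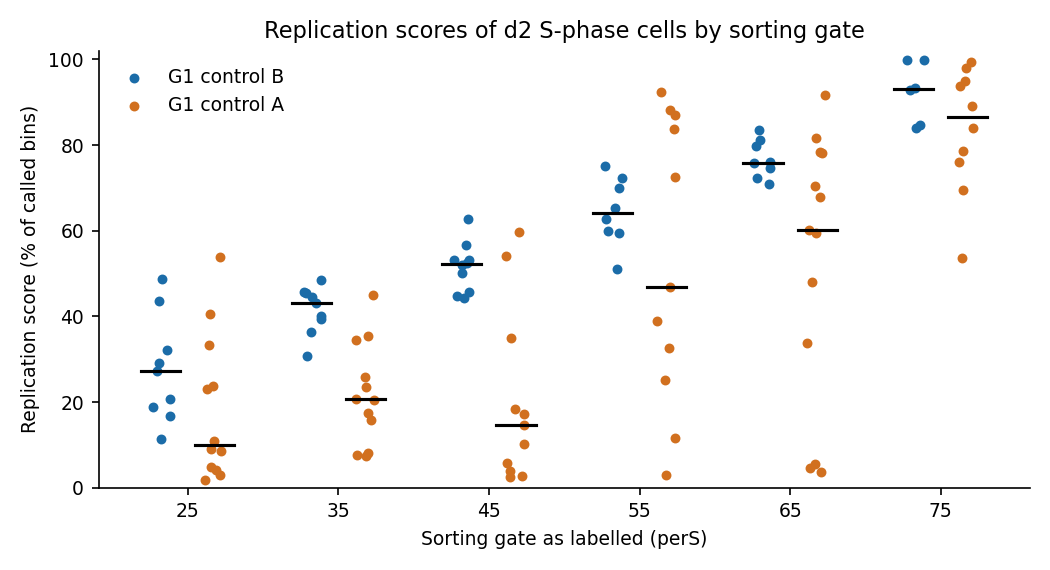
Replication score (% of called autosomal bins) of each of the 119 d2 S-phase cells by sorting gate, with G1 control B cells in blue and G1 control A cells in orange; black bars are medians. In the 45perS gate control B cells lie between 44.4% and 62.7%, and control A cells spread from 2.42% to 59.8%.

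Over most of S phase the d2 cells filled in the genome in a graded order from early to late bins, with exceptions among the control A cells of lowest score. To show it on an order that the d2 cells did not make, all bins were sorted by their timing in d0 cells and cut into 20 equal groups. In the 18 d2 cells with scores of 5 to 20%, the earliest group was replicated at a median of 37.3% of its bins, with a range of 6.50% to 87.1%, and the latest group at 1.62%. The controls did not overlap here: the earliest group stood at 71.4% to 87.1% in the 3 cells with control B, with a median of 78.1%, and at 6.50% to 65.3% in the 15 cells with control A, with a median of 32.9%. The controls were not matched in score within the class: control B cells scored 11.3% to 18.8% and control A cells 5.55% to 18.4%. Some of these control A cells, and none of the control B cells, scored no higher than the highest G1 cell, at 10.6%. In 3 of the control A cells the fourth group was replicated further than the earliest. In the 21 cells with scores of 20 to 40% the earliest group had reached a median of 92.9%, the fifth group 62.1% and the tenth 17.3%. In the 29 mid-S cells, with scores of 40 to 60%, these 3 groups stood at 99.4%, 94.6% and 47.5%, and the latest group at 2.97%. In the 16 cells with scores of 80 to 95% the tenth group had reached 99.0% and the latest 48.6%. With control B the latest stood at 26.1% and with control A at 50.6%, in cells not matched in score. The latest group was thus incomplete in all 16 cells of this class, while the earliest was at 97.5% or more in every mid-S cell. The highest value of the latest group, 94.4%, was that of a cell with chromosome 5 called unreplicated throughout, described further on. The earliest group of that cell stood at 90.5%, and the next highest cell had 70.7% of the latest group replicated.

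**Figure D2:**
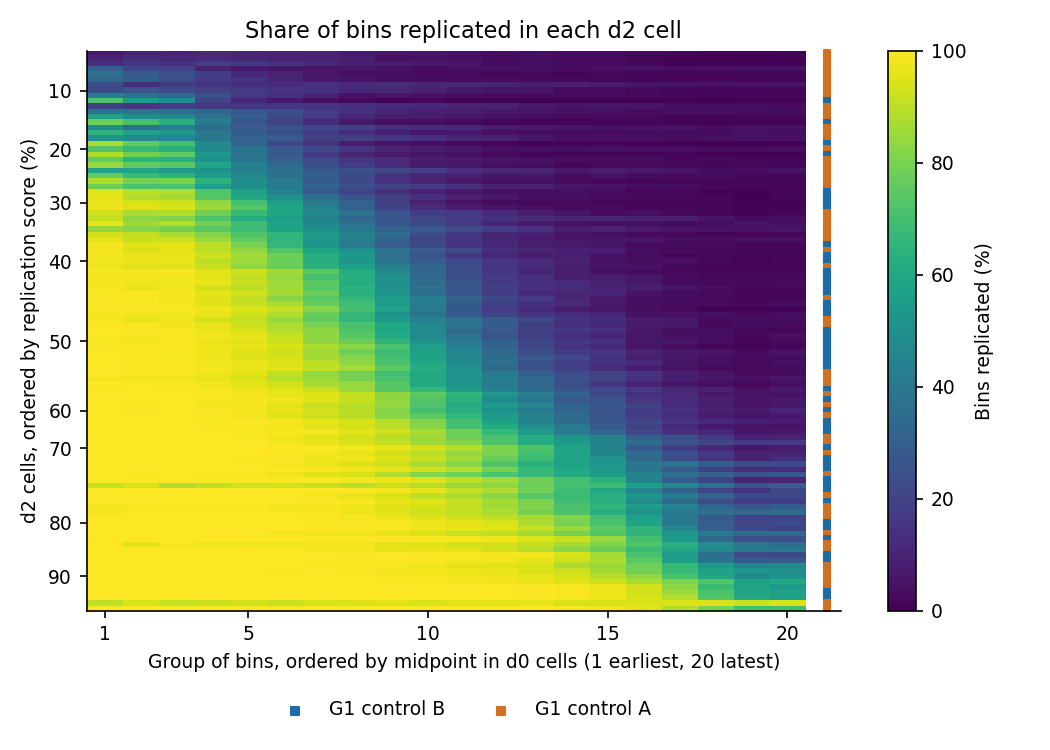
Percentage of bins replicated (colour) in each of the 105 d2 cells, ordered from low scores at the top to high scores at the bottom, in 20 equal groups of bins ordered by their midpoint in d0 cells; squares at the right give the G1 control of the cell. The front between replicated and unreplicated bins moves from the left to the right as the score rises, and single rows that break it are cells that stand apart, such as the cell with a score of 93.8%.

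Over the same 5 score classes, with 18, 21, 29, 21 and 16 cells, the bins replicated in at least 50% of the cells made up 6.30%, 28.0%, 48.6%, 72.7% and 92.0% of the 29689 bins that had enough calls in each class. A further 8.02%, or 2380 bins, reached 50% in no class. In 75.8% of bins the share of replicated cells fell in no step from class to class. Because the score is made of the same bins, the genome fills S phase evenly by construction, and only which bins lie where is informative.

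Each bin was then given a midpoint, the score at which 50% of cells had replicated it, and a span, the points of score over which its share of replicated cells rose through the middle range from 25 to 75%. Of 29734 bins fitted, 11739 (39.5%) were early with midpoints under 40%, 6244 (21%) middle, and 11751 (39.5%) late with midpoints above 60%. Neighbouring bins had similar midpoints. Across pairs of bins at 80 kb the correlation was r = 0.977, at 400 kb 0.798, at 800 kb 0.576, at 2000 kb 0.322 and at 8000 kb 0.108, which describes these cells, since bins share cells and are not independent. The smoothed profile had 879 early peaks, where replication starts ahead of its surroundings, with a median spacing of 2400 kb (quartiles 1680 and 3440 kb). Their median midpoint was 21%, that of the 888 late valleys 68.9%, and the median slope from a peak to the next valley was 31.2 points of score per Mb. Most peaks, 690, were early, but 67 lay in late chromatin with midpoints above 60%. With fewer cells per fit, control B cells gave 954 early peaks and control A cells 992.

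Chromosomes differed in their mean place in the order. Chromosome 11, the earliest, had a mean midpoint of 38.1% and 58.8% early bins. It was followed by chromosomes 19 (42%), 9 (45.0%) and 2 (45.9%). Chromosome 3 was the latest with 58.4% and 27.4% early bins, after chromosomes 16 (57.9%), 14 (57.7%) and 1 (57.3%). The first 3 places were the same chromosomes in the same order with either control and at d0, but at d3 chromosome 7 ranked 3 and chromosome 9 ranked 6. The difference between controls reached 2.94 points on chromosome 3 (59.3% with control B, 56.4% with control A), and the order among the 4 latest chromosomes was not the same with each control. Against d0, chromosome 17 showed the largest later mean at d2 (46.9% against 44%) and chromosome 3 the largest earlier mean (58.4% against 60.8%), while the controls differed by -1.56 points on chromosome 17 and by 2.94 points on chromosome 3. The last 5.0 Mb of fitted bins of a chromosome had a median midpoint of 36.1%, from 18.2% on chromosome 11 to 82.3% on chromosome 18, and were earlier than the mean of their chromosome on 13 of 19. The first 5.0 Mb had a median of 50.9%, from 17.2% on chromosome 19 to 77.5% on chromosome 14, and were earlier than the mean of their chromosome on 11 of 19.

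The earliest and the latest 800 kb window of each chromosome mark the ends of the programme. The earliest windows had mean midpoints of 2.45% to 10.8% over the 19 chromosomes, and the latest 91.6% to 100%. Earliest of all was chromosome 9 from 108320001 to 109120000 (mm9), with a mean midpoint of 2.45% (11.3% with control B, 2.60% with control A): it was replicated in 13 of 17 cells with scores of 5 to 20%, in 19 of 21 with scores of 20 to 40%, and in all 29 mid-S cells. Next came chromosome 6 from 72080001 to 72880000 (5.10%), chromosome 7 from 3120001 to 3920000 (5.90%), chromosome 12 from 52240001 to 53040000 (6.40%) and chromosome 8 from 125280001 to 126080000 (6.50%). Of these, the chromosome 12 window was also 20 points earlier than at d0, where its midpoint was 26.4%, but at 13% with control B and 7.15% with control A it lay less than 20 points from d0 with either control alone.

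Latest of all was chromosome 6 from 44880001 to 45680000, with a midpoint of 100%. It was replicated in 0 of 29 mid-S cells, which allows a share of up to 10.3%, in 1 of 21 cells with scores of 60 to 80%, and in 2 of 16 with scores of 80 to 95%. The windows on chromosome 1 from 50320001 to 51120000 (99.6%), chromosome 4 from 37840001 to 38640000 (99.6%), chromosome 14 from 3920001 to 4720000 (99.5%) and chromosome 12 from 61120001 to 61920000 (99.4%) followed, each replicated in 2 of 16 of the latest cells. A midpoint at the end of the scale says only that most cells up to a score of 95% had not copied the window. No gene could be placed on these windows, because no annotation of the mm9 build was at hand.

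The step from unreplicated to replicated took a median of 14.5 points of score over the 26774 bins with midpoints of 10 to 90% (quartiles 10.8 and 19.5 points). It was under 10 points in 21.6% of bins and over 30 in 5.47%. Spans were widest in the middle of S phase, with a median of 16.8 points in bins with midpoints of 40 to 70%, against 10.8 points for midpoints of 10 to 20% and 13.5 points for 80 to 90%. At d0, bins with d0 midpoints in the same range had medians of 13.5 points, which need not be the same bins. Within one control the spans were shorter, with medians of 12.5 points for control B and 13.5 points for control A, both below the median over all cells. These fits rest on 48 and 57 cells, against 105 for all cells. Their 5th percentiles were 1 and 2.10 points, against 6.40 points over all cells. At d3, with 39 cells, the median was 13.5 points. How far fewer cells shorten the spans was not tested.

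**Figure D3:**
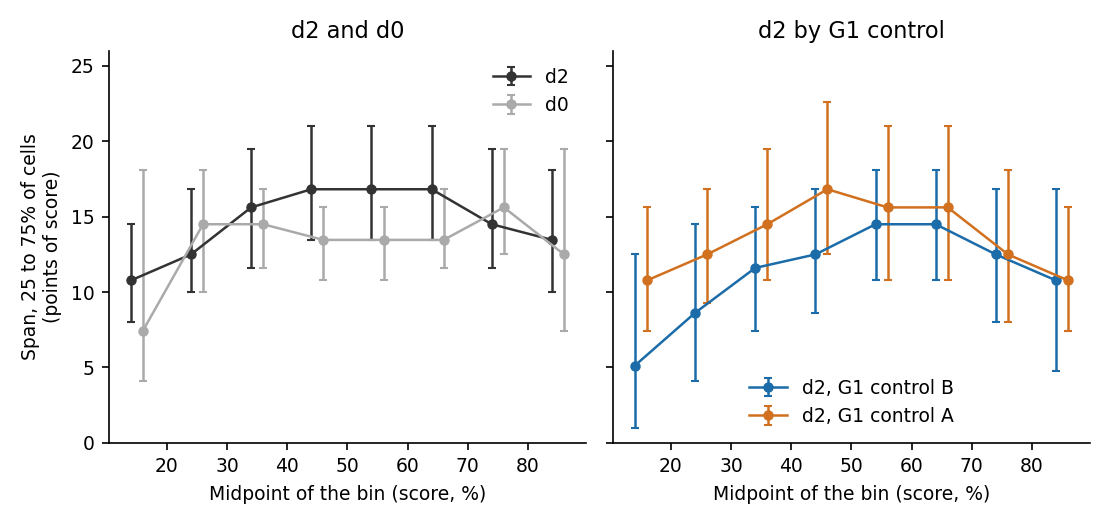
Median span (points of score) with quartiles as bars, for bins grouped by midpoint in steps of 10 points, in d2 and d0 cells (left) and in d2 cells of G1 control B and G1 control A (right). The d2 median reaches 16.8 points for midpoints of 40 to 70%, where the d0 median is 13.5 points; control B cells have shorter spans than control A cells up to midpoints of 70%.

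Most bins with the widest spans had midpoints that differed between the controls. Of 1439 bins with a span over 30 points and a midpoint with each control, 939 (65.3%) had midpoints 20 points or more apart between controls, against 4.28% of the 5788 bins with spans under 10 points. Both measures come from the same cells, so this is a description. Among windows whose bins all had midpoints of 20 to 80%, the widest was chromosome 3 from 138720001 to 139520000, with a mean span of 58.2 points. It was replicated in 6 of 18, 4 of 20, 8 of 29, 13 of 19 and 15 of 15 cells over the 5 score classes. Its midpoint was 65.3% with control B and 20.05% with control A, and among mid-S cells it was replicated in 2 of 20 with control B and 6 of 9 with control A. At d0 it lay at 72.1%. The second was chromosome 6 from 68480001 to 69280000 (span 55.3 points), which spread widely within each control too (48.6 points with control B, 50.7 with control A). The others were chromosome 2 from 14400001 to 15200000 (43 points), chromosome 15 from 90640001 to 91440000 (42.5 points) and chromosome 11 from 9280001 to 10080000 (37.3 points).

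In the narrowest windows under the same limit on midpoints, nearly all cells changed over within a few points of score. Chromosome 2 from 174000001 to 174800000 had a mean span of 5.36 points at a midpoint of 32.4%: it was replicated in 0 of 17 cells with scores of 5 to 20%, 8 of 21 with scores of 20 to 40% and 29 of 29 mid-S cells. Its midpoint was 31.7% with control B and 32.6% with control A. The cell with the highest score that had not replicated it, at 75.1%, was a control B cell in which nearly all of chromosome 2 was called unreplicated. Chromosome 10 from 42160001 to 42960000 (span 6.01 points, midpoint 27.4%) was replicated in no cell with a score under 23.7% and in every cell above 29.1%. Chromosome 8 from 75760001 to 76560000 (6.12 points, midpoint 71.2%) changed later, with 0 of 29 mid-S cells, 11 of 21 cells with scores of 60 to 80% and 16 of 16 later cells replicated, between scores of 70.5% and 75.7%. Chromosome 15 from 97440001 to 98240000 (6.42 points) and chromosome 3 from 29200001 to 30000000 (6.91 points) completed the set. At d0 the 5 windows had mean spans of 12.1 to 22.3 points. They were chosen as the narrowest at d2, so wider spans at d0 can follow from the choice alone. Over all bins with midpoints of 10 to 90% the median span was 13.5 points at d0 and 14.5 at d2.

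Within single cells the replicated genome first appeared as short runs and later merged into long domains. The 29 mid-S cells had a median of 843 replicated runs on the autosomes (range 681 to 933), with a median length of 800 kb (640 to 1200 kb) and a longest run of 14.9 Mb (8.40 to 21.1 Mb). Unreplicated runs in the same cells had a median length of 880 kb. Runs of 1 Mb or more were 43.8% of the replicated runs and held 82.5% of the replicated length. In the 21 cells with scores of 60 to 80% the number of replicated runs was 581 and their median length 1520 kb, and in the 16 cells with scores of 80 to 95% it was 309 and 3440 kb. The median length of unreplicated runs was 960, 880, 720 and 720 kb from the second score class to the last, while their median number was 894, 831, 565 and 293. At d0 mid-S cells had 704 replicated runs with a median length of 1040 kb, inside the range of the d2 cells.

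In the first score class the medians of the runs differed between the controls, with overlapping ranges. Scores in this class ran from 11.3% to 18.8% with control B and from 5.55% to 18.4% with control A. The 3 cells with control B had 608 to 857 replicated runs with median lengths of 320 to 400 kb, and the 15 cells with control A had 281 to 1836 runs with median lengths of 80 to 1200 kb. The longest of these belonged to the cell with only 16184 called bins. Runs of a single bin were 14% of the replicated runs at the median with control B and 39.3% with control A.

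Cells at the same point of S phase had most, but not all, of their calls in common, and pairs with the same control had slightly more. Over 538 pairs of d2 cells within 5 points of score, a median of 83.8% of bins were called alike, with a range of 75.0% to 93.4%. Pairs with the same control shared 84.8% and pairs with different controls 82.4%. Among the pairs in mid-S the medians were 84.6% and 82.2%. Across S phase, agreement was lowest at scores of 20 to 40% (82.0%) and highest at 80 to 95% (87.1%), where most bins are replicated in both cells. At d0 the median was 87.1% over 1787 pairs, with a lowest pair of 34.5%, and at d3 81.1% over 76 pairs. The days were not matched in score: 807 of the d0 pairs and 107 of the d2 pairs lay at scores of 60 to 80%. Among mid-S pairs the medians were 84.7% at d0, 83.8% at d2 and, over 15 pairs, 79.8% at d3.

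The share of calls far out of order differed between stages of S phase, but so did the bins on which it was measured. In the 29 mid-S cells a median of 2.67% of the bins due at least 20 points later were already replicated (range 1.47% to 4.90%), and 1.78% of the bins due at least 20 points earlier were not (0.898% to 4.17%). Such calls came in runs with median lengths of 160 kb ahead of the order and 80 kb behind it. Calls ahead of the order were more frequent in cells with scores of 60 to 80%, with a median of 6.56%, up to 23.8%. Calls behind it were more frequent in cells with scores of 20 to 40%, with a median of 4.12%, up to 30.3%. The highest shares rest on few bins, 95 of 400 and 54 of 178. The bins due at least 20 points later numbered 5136 in a cell with a score of 60.2% and 288 in one at 79.9%. Those due at least 20 points earlier numbered 155 at a score of 20.4% and 4582 at 39.3%. Shares at different stages are thus taken over unlike sets of bins, whose midpoints come from the same cells. Calls ahead had medians of 2.76% at scores of 5 to 20% and 2.78% at 20 to 40%. Calls behind had medians of 1.23% at 60 to 80% and 0.754% at 80 to 95%. In the 20 mid-S cells with control B the medians were 2.66% ahead and 2.03% behind, and in the 9 with control A 2.72% and 1.12%.

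Most cells followed the order of the others closely. The area under the curve with which the mean profile of the other d2 cells ranked replicated over unreplicated bins was 0.940 at the median, and 0.952 in mid-S, where it ran from 0.934 to 0.963. It was below 0.8 in 5 of the 105 cells, all of them with control A, of which 4 had scores of 5 to 20%. Ranked by the d0 midpoints instead, the median was 0.933 for cells with control B and 0.893 for cells with control A. In the first score class it was 0.931 for the 3 control B cells and 0.765 for the 15 control A cells. The controls were not matched in score there.

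A few cells departed from the order by a whole chromosome. Of 1993 values of a chromosome in a cell, 10 (0.502%), in 10 different cells, lay 25 points or more from the fitted share, 7 above and 3 below, where the standard deviation over all values was 4.72 points. In a cell of the 75perS gate with control A and a score of 93.8%, chromosome 5 was called replicated in 0 of 1830 bins, which allows up to 0.164%, and the cell held only 2 unreplicated runs in all. This cell had the lowest area under the curve, 0.468. In a cell of the 55perS gate with control B and a score of 75.1%, chromosome 2 was replicated in 0.104% of 1927 bins, against 85.2% in the fit. In the other direction, a cell of the 45perS gate with a score of 18.4% had 63% of chromosome 18 replicated, against 13.5% in the fit, and a cell of the 55perS gate with a score of 72.3% had 95.9% of chromosome 16 replicated, against 46.8%. Whether the copy number of these chromosomes differed in these cells was not tested.

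**Figure D4:**
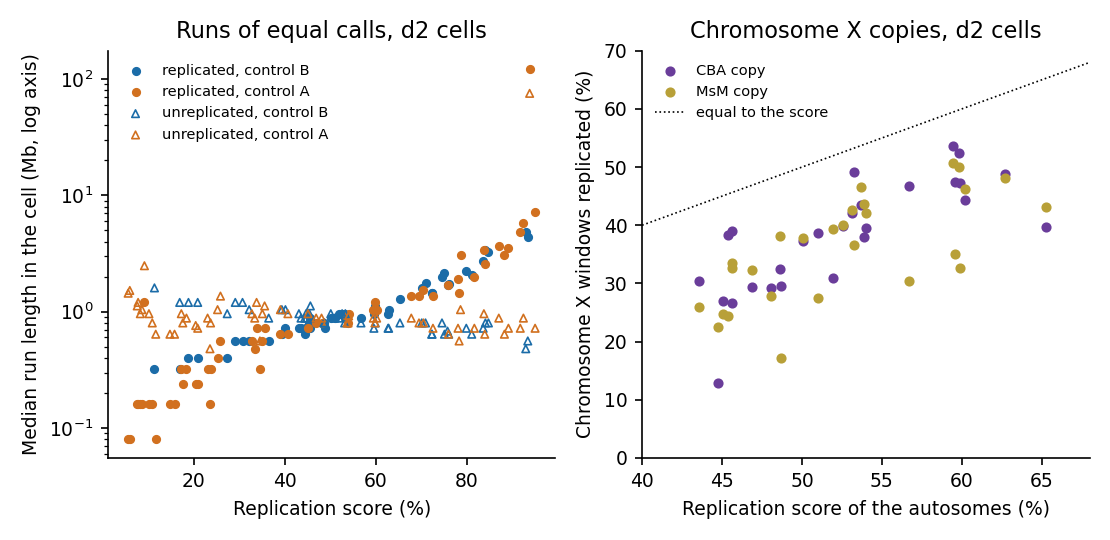
Left: median length of replicated (filled circles) and unreplicated (open triangles) runs in each of the 105 d2 cells against replication score, on a log axis in Mb, by G1 control; the cell at a score of 93.8% with a single unreplicated chromosome stands far above the rest. Right: percentage of chromosome X windows replicated on the CBA and MsM copies of 27 d2 cells against the autosomal score, all below the dotted line of equality.

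Against d0, the d2 programme differed at a minority of places, and the direction was mixed. Of 29681 bins fitted on both days, 1240 (4.18%) had midpoints at least 20 points earlier at d2 and 973 (3.28%) at least 20 points later, and the median absolute shift was 7.00 points. Bins that were earlier at d2 had a mean midpoint of 43.4% at d2 and 70.2% at d0, and 791 of the 1240 were late at d0. Bins that were later at d2 had a mean of 47% at d2 and 22.3% at d0, and 688 of the 973 were early at d0. Adjacent shifted bins formed 67 earlier regions of at least 400 kb, the longest of 1520 kb, and 49 later regions, the longest of 1280 kb.

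The size of these counts has to be read against the 2 controls of d2 itself. Between control B and control A cells of the same day, 1551 of 29667 bins (5.23%) lay at least 20 points earlier with control B and 1729 (5.83%) at least 20 points later, more than between d2 and d0. The fits by control rest on 48 and 57 cells, against 105 at d2 and 157 at d0. How far the smaller numbers raise the counts between controls was not tested. Of the 1236 bins earlier at d2 that could be fitted with each control, 1179 lay on the earlier side of d0 with both, and 447 (36.2%) passed 20 points with both. Of the 967 later bins, these numbers were 861 and 377 (39%). Matching d2 and d0 cells in score, 83 of each, gave 1147 earlier and 2412 later bins. The share of later against earlier bins thus depended on the cells used, as it did with the 31 d0 cells of the present series alone (1983 earlier, 2243 later) against the 126 of the earlier series (1162 earlier, 822 later). Control A cells alone gave 2374 earlier and 1934 later bins. Over the 29653 bins that could be fitted with each control, control B cells alone gave 1086 earlier and 802 later bins.

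The 5 windows with the largest mean shift in each direction were chosen on these cells, so their values are a description. On chromosome 13 from 117520001 to 118320000 the mean midpoint was 37.5% at d2 (33.6% with control B, 40.6% with control A) and 90.2% at d0. In mid-S cells it was replicated in 24 of 29 at d2 (82.8%, exact 95% interval 64.2% to 94.2%) and in 1 of 40 at d0 (2.50%, interval 0.0633% to 13.2%). At d3 it was replicated in 7 of 10 mid-S cells. The shift was local: a bin 40 kb from the centre of the window had midpoints of 22% at d2 and 87.5% at d0, while a bin 1080 kb before the centre had 88.0% and 87.5%, and a bin 1000 kb after it 77.5% and 79%.

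Chromosome 2 from 16240001 to 17040000 had a midpoint of 22.8% at d2 (36.2% with control B, 17.9% with control A) and 67.6% at d0, with 26 of 29 mid-S cells replicated at d2 and 3 of 41 at d0. Chromosome 1 from 46640001 to 47440000 had 42.4% at d2 and 80.0% at d0, with 18 of 29 against 6 of 41 mid-S cells. The remaining windows of this set moved within late S phase, so that mid-S cells hardly showed them. Chromosome 15 from 22240001 to 23040000 had a midpoint of 64.5% at d2 and 100% at d0, and chromosome 8 from 99520001 to 100320000 had 64.9% and 100%. Each was replicated in 12 of 21 d2 cells with scores of 60 to 80%.

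Among the windows that became later, chromosome 15 from 50320001 to 51120000 had a midpoint of 79.4% at d2 (73% with control B, 85.4% with control A) and 36.7% at d0. It was replicated in 4 of 29 mid-S cells at d2 (13.8%, interval 3.89% to 31.7%) and in 38 of 41 at d0 (92.7%, interval 80.1% to 98.5%). Even at scores of 80 to 95% it was replicated in only 11 of 16 d2 cells. Chromosome 4 from 52960001 to 53760000 had 51.4% at d2 and 15.1% at d0, with 13 of 29 against 39 of 41 mid-S cells replicated. Chromosome 6 from 137360001 to 138160000 had 62.4% and 33.8%, with 3 of 29 against 37 of 41 cells. Chromosome 12 from 88960001 to 89760000 had 71% and 44.6%, with 2 of 29 against 31 of 41. Chromosome 3 from 80480001 to 81280000 had 79.2% at d2 and 50.6% at d0, but its shift was 38.2 points with control A and 16.7 points with control B. In each of the other 9 windows both controls moved the same way by at least 20 points.

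**Figure D5:**
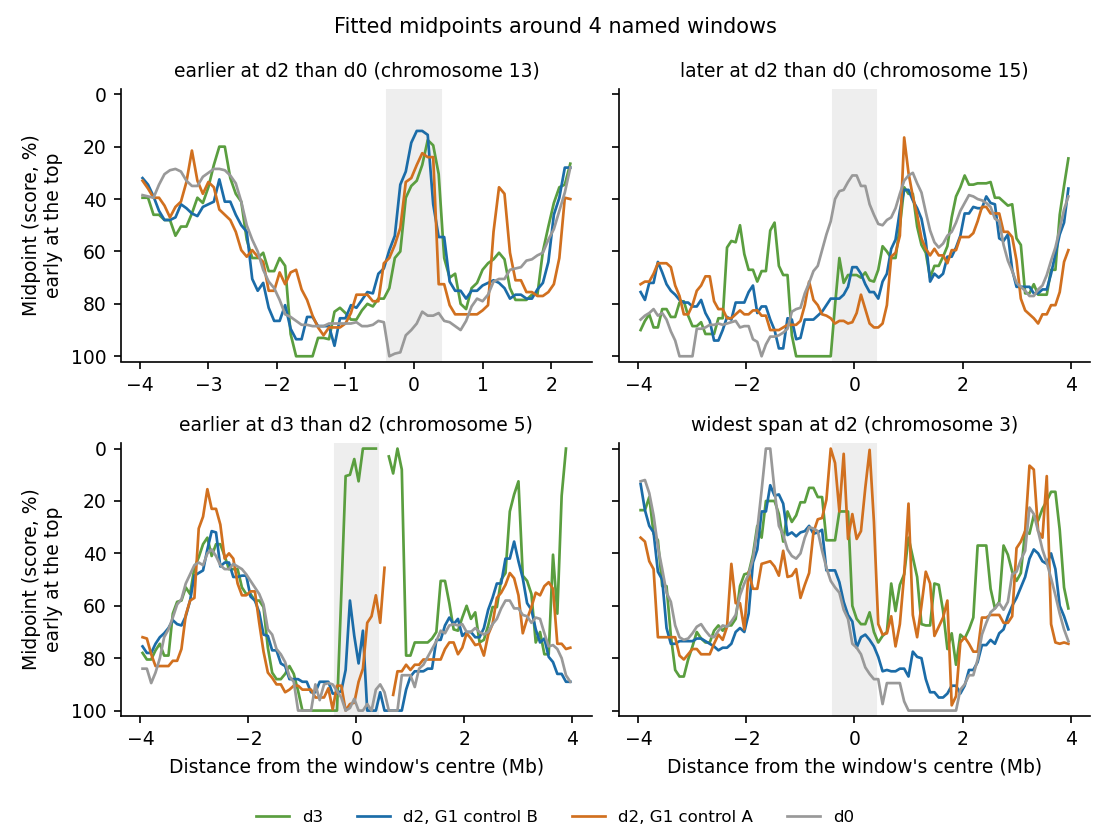
Fitted midpoint (score in %, early at the top) of 80 kb bins against the distance in Mb from the centre of 4 named windows (grey band), for d3, d2 with G1 control B, d2 with G1 control A, and d0. On chromosome 13 the d3 and d2 lines form an early peak where d0 lies at 90.2%, on chromosome 15 d2 lies at 79.4% where d0 lies at 36.7%, on chromosome 5 d3 alone is early, and on chromosome 3 control A is ahead of control B.

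Between d3 and all 105 d2 cells, fewer bins differed than between the controls of d2 itself, which were fitted on 48 and 57 cells. Of 29545 bins fitted on both days, 1196 (4.05%) were at least 20 points earlier at d3 and 885 (3.0%) at least 20 points later, on 39 d3 cells. With control A cells alone as d2 these were 2034 and 2006 bins, and with control B cells alone 1326 and 902. This comparison and that with d0 share the d2 cells, so their overlap is not given. The largest shift was on chromosome 5 from 10720001 to 11520000, with midpoints of 19.2% at d3 and 89.3% at d2, and 97.2% at d0. It was replicated in 9 of 9 mid-S cells with enough calls at d3 (interval 66.4% to 100%) and in 1 of 23 at d2 (interval 0.110% to 21.9%). At d2 it had enough calls in 23 of 29 mid-S cells. Its d3 midpoints ran from 100% in the first bin to 0% in the bins 120 to 360 kb after the centre. A midpoint of 0% says only that most cells from a score of 5% up were called replicated. The bins 440 and 520 kb after the centre could not be fitted at d3. At d2 the bin 360 kb after the centre lay at 100% with control B and 56% with control A. The bin 120 kb before the centre lay at 58% and 97.5%. Chromosome 7 from 15280001 to 16080000 had 27.5% at d3 and 92.2% at d2, with 10 of 10 against 0 of 29 mid-S cells replicated, and chromosome 14 from 41760001 to 42560000 had 21.8% and 82.0%, with 9 of 10 against 0 of 29. Some bins of these 2 windows could not be fitted at d0 or with control B. At d0 the chromosome 14 window was replicated in 14 of 40 mid-S cells and the chromosome 7 window in 3 of 41. Chromosome 6 from 73600001 to 74400000 had 58.4% at d3 and 95.7% at d2, with a d2 span of 54.9 points and 1 of 10 against 1 of 29 mid-S cells replicated. Chromosome 3 from 155440001 to 156240000 had 61.6% and 98.4%, with a d2 span of 43.4 points and 2 of 10 against 2 of 29 cells.

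Windows later at d3 included some of the early domains of d2. Chromosome 15 from 78480001 to 79280000 had midpoints of 52% at d3 and 15.6% at d2, and was replicated in 6 of 10 mid-S cells at d3 (interval 26.2% to 87.8%) and 29 of 29 at d2 (interval 88.1% to 100%). Chromosome 12 from 109040001 to 109840000 had 50.0% and 20.9%, with 6 of 10 against 29 of 29 cells. Chromosome 5 from 112320001 to 113120000 had 49.8% and 21.4%, with 4 of 10 against 28 of 29. Chromosome 18 from 44560001 to 45360000 had 67% at d3 and 40.8% at d2, and chromosome 13 from 52320001 to 53120000 had 55.8% and 30.5%; measured against control B cells alone, these shifts were 19.3 and 13.2 points. The d3 intervals are wide, since there were 10 mid-S cells.

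The windows that differed most between the controls mark where the d2 values depend most on which cells are used. Besides the chromosome 3 window from 138720001 described above, chromosome 6 from 75920001 to 76720000 had midpoints of 98.5% with control B and 55.6% with control A, and chromosome 8 from 68320001 to 69120000 had 82.2% and 44.4%. The chromosome 8 window was replicated in 0 of 20 mid-S cells with control B and 4 of 9 with control A. Mid-S cells hardly differed at the chromosome 6 window, with 1 of 20 and 1 of 9 replicated, and its span was 44.6 points with control B and 62.4 points with control A. In the other direction, chromosome 3 from 158480001 to 159280000 had 68% with control B and 96.1% with control A, chromosome 1 from 158720001 to 159520000 had 10.0% and 37.9%, and chromosome 12 from 19440001 to 20240000 had 30.8% and 58.4%. Whether the control, the sort or the culture goes with these differences cannot be told apart. Across all bins, midpoints of the controls correlated at r = 0.893, those of d2 and d0 at 0.924, those of control B and d0 at 0.931 and those of control A and d0 at 0.875, as descriptions over bins that share cells. The fits rest on 48 cells for control B, 57 for control A, 105 for d2 and 157 for d0.

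On chromosome X, the CBA copy was ahead in about as many d2 cells as the MsM copy, though the largest leads were those of the CBA copy in control B cells. Calls for the CBA and MsM copies in windows of 400 kb were deposited for 27 of the d2 cells, labelled as having 2 X chromosomes, with autosomal scores of 43.5% to 65.3%. In female cells either X chromosome is silenced during differentiation, and the silent copy is known to replicate late. The CBA copy was replicated in 12.9% to 53.5% of its windows, with a median of 39.1%, and the MsM copy in 17.2% to 50.8%, with a median of 36.6%. Within a cell the difference, CBA minus MsM, ran from -9.54 to 16.3 points with a median of 0.602, and the CBA copy was ahead in 14 cells and the MsM copy in 13. In 0 of 27 cells were the copies more than 20 points apart, which allows a share of up to 11.1%. At d0, where 33 cells were deposited, the difference ran from -13.1 to 11.1 points. The spread at d2 lay mainly with control B, where the difference ran from -9.54 to 16.3 points over 18 cells, against -5.56 to 2.77 over 9 cells with control A. The mean difference was 3.87 points with control B and -0.772 with control A. It was 2.32 points over all 27 cells and -0.577 at d0.

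Both copies lagged the autosomes. The mean of the copies was below the autosomal score in 27 of 27 d2 cells, with differences of -27.05 to -7.29 points and a median of -14.9 points, against -13.7 points at d0. Within a cell a median of 76.4% of windows had the same call on both copies (range 69.1% to 81.5%). Over the 322 windows with enough calls, 42 were replicated in at least 80% of cells on both copies and 121 in at most 20% on both, and the share of cells correlated between copies at r = 0.880 across windows.

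At a minority of windows the copies differed. The CBA copy was ahead by at least 30 points of cells in 17 windows (5.28%) and the MsM copy in 10 (3.11%). Chromosome X from 163600001 to 164000000 was replicated on the CBA copy in 16 of 27 cells (59.3%, interval 38.8% to 77.6%) and on the MsM copy in 1 of 27 (3.70%, interval 0.0937% to 19%). The window before it, from 163200001 to 163600000, had 13 of 18 and 4 of 27. In the opposite direction, 3 windows between 91600001 and 93200000 were ahead on the MsM copy. From 91600001 to 92000000, the CBA copy was replicated in 10 of 27 cells (37%, interval 19.4% to 57.6%) and the MsM copy in 25 of 27 (92.6%, interval 75.7% to 99.1%). These windows were picked as the largest differences after their values were seen. No test between the copies was made.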

How the data were processed

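Single cells had been sorted, amplified and sequenced with 80-base single reads, per the labels' protocols. BWA 0.7.10-r789, cutadapt, Picard and the mm9 build are named in the submitters' processing notes. The authors deposited a score of 1 (replicated), -1 (not replicated) or 0 (no call) per 80 kb bin, and per 400 kb window for each chromosome X copy. Their replication score is a fraction of called autosomal bins, per the file headers, printed here as a percent. It differed from the recomputed score by at most 5.00e-08 points. Other values are flags the authors deposited, which mark 14 d2 cells outside scores of 5 to 95% and 4 more with scores of 62.8 to 83.7%. These 4 were kept in the fits, and the median span without them was the same. The columns that hold the flags may be swapped relative to the header. Read depth per cell was not used here, so called bins stand for it.

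A logistic curve of call against score was fitted per bin by maximum likelihood on a grid, with 1% of calls taken as wrong, over bins called in at least 50% of cells. Shifts of 20 points were called. Runs were joined over bins with no call. Named regions are windows of 10 bins, at most 1 per chromosome and measure, and for spans only windows with all midpoints of 20 to 80%: the 5 earliest, latest, widest, narrowest and most shifted, and the 3 that differed most between controls in each direction. Intervals are exact Clopper-Pearson at 95%, the limit for a count of 0 is 3 counts of the total, and both cover counting error only. The calculations were tested on simulated data. The cells and measures were chosen with earlier results of these data known. Gene lists were not analysed here, because no mm9 annotation was used. Alternatives covered the fit, the cells used and the thresholds, and some were added after seeing the data. Python 3.11.15, numpy 2.4.6, pandas 2.3.3, scipy 1.17.1, scikit-learn 1.9.0 and matplotlib 3.10.9 were used.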

Additional observations from a re-analysis of the deposited data

How the results depend on the processing

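Of 87 values recomputed under alternative settings for the main results, 62 stayed within 1.5 times or within their spread and 25 moved. Direction was not scored for these values. Unlike in the main fit, later bins outnumbered earlier ones against d0 with cells matched in score. The same held with the d0 cells of the present series alone. The median span was 15.6 points with 0.1% of calls taken as wrong, 11.6 with 5%, 12.5 with control B cells only and 13.5 with control A cells only. Counting runs of at least 3 bins gave medians of 1040 kb for replicated and 1040 kb for unreplicated runs in mid-S. For d2 against d0, 5039 bins were earlier and 5429 later past 10 points, and 297 and 124 past 30 points. Matching d2 and d0 cells in score gave 2412 later bins, the d0 cells of the present series alone 1983 earlier and 2243 later, and control A cells alone 2374 and 1934. Control B cells alone gave 1086 and 802 over the 29653 bins fitted with each control. For d3 against d2 the counts were 5233 and 4802 past 10 points, 360 and 183 past 30 points, and 2034 and 2006 with control A cells alone. Between control B and control A they were 6117 and 5875 past 10 points, and 227 and 519 past 30 points. A lower or higher threshold passes more or fewer bins by construction; for the other moves the cause was not tested. All 150 recomputed window shifts went the same way as reported, but the windows were chosen as the largest shifts in these same cells. The settings reuse those cells, so this is not a check of the shifts. No paired analysis was possible because each day is 1 sample and cell numbers pair no cells.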
